A study of Mus musculus with 18 samples.

Results

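DNA methylation in the gonadal fat of control mice was compared with that in the liver of control mice, CpG by CpG. The CpGs are those on chromosomes 1 to 19 that are listed in both tissue tables and covered by at least 20 reads in each control pool. They number 1458086, or 90.9% of the 1604259 CpGs of these chromosomes listed for both tissues. The control animals were male C57BL/6 offspring aged 3 weeks whose dams were gavaged with corn oil on days 1 to 20 of gestation. A second set of pools came from male offspring of the same strain and age whose dams received bisphenol A (BPA) at 5 mg per kg per day in corn oil over the same days. Reduced representation bisulfite sequencing (RRBS), which reads CpGs in fragments cut by MspI, was applied to 3 samples for each treatment and tissue, and a hypothalamus series was measured in the same way. The control offspring were drawn from 3 litters and the exposed ones from 4, and samples are not tied to litters in the labels.

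Each deposited level joins the 3 samples of a group into 1 pool, so no spread between animals can be given, and the second pools are the only repeat of the tissue contrast. No label states which pool number is control. The number 0 was read as control only because a label names the control group first, and the direction between tissues does not rest on that reading, because both sets are shown. In whole tissue a level averages over all cell types, so a different mix of cells and a different level within 1 cell type cannot be told apart. The coverage was a median of 193 reads per CpG in the adipose control pool and 162 in the liver control pool.

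Cytosines in CpG pairs carry a methyl group in most of the mammalian genome, while CpG-rich gene starts are mostly free of it. Cell types differ mainly at enhancers and at promoters of lower CpG density, where a low level usually accompanies use of the element in that cell type. The liver consists largely of hepatocytes, which secrete plasma proteins and make bile acids and glucose. Gonadal white fat consists of lipid-storing adipocytes with precursors of mesodermal origin, endothelium, leukocytes and a mesothelial cover.

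The mean level was nearly the same in both tissues, 49.2% in adipose and 49.4% in liver, a difference of 0.24 points. Of the CpGs, 39.1% were under 20% methylated in adipose and 39.3% in liver, and 39.1% and 39.3% were over 80%. A CpG was called different when the two-sided Fisher's exact test on its pooled reads gave a Benjamini-Hochberg adjusted p under 0.05 over all 1458086 CpGs and the pools differed by at least 20 percentage points. By this rule 46397 CpGs were lower in liver (3.18%) and 72507 were lower in adipose (4.97%), together 8.15%. The median difference, liver minus adipose, was -31.2 points for the former and 30.4 points for the latter. Differences of at least 60 points numbered 3322 among CpGs lower in liver and 1267 among CpGs lower in adipose. The fewer CpGs lower in liver thus held most of the widest gaps, and 884 of them were over 80% in adipose and under 20% in liver, against 266 with the opposite pattern.

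The second pools repeated most of these calls. Of the called CpGs with at least 20 reads in both second pools, 97.4% of the 45677 lower in liver and 98.9% of the 71681 lower in adipose differed in the same direction there. The same call was made at 66.5% and 73.0% of them, and the opposite call at 7 and 9 CpGs. Median differences at these CpGs were -31.1 points in the control pools and -27.1 points in the second pools for those lower in liver, and 30.3 and 28.0 points for those lower in adipose. Taken alone, the second pools gave 42989 calls lower in liver (2.96%) and 72006 lower in adipose (4.95%), 7.91% in all. Across the 1427082 CpGs covered in all pools the differences of both sets had a Pearson r of 0.840 and a Spearman rho of 0.612, as a description over CpGs that share libraries and reads. The test compares pooled reads and not animals, and reads amplified by PCR and not tagged by molecule cannot be counted as separate molecules. A limma fit over the 4 pools, which takes each pool as 1 sample, called 0 CpGs, with 324321 of 1427082 at an unadjusted p under 0.05. It has only 4 values per CpG for the tissue difference, the pool set and the spread. Its 0 calls therefore cannot show that the tissues do not differ.

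The tissue difference itself differed between the control and second pools at few CpGs. A Wald test on the change in log odds ratio between the sets, with a change of at least 20 points, called 416 of 1427082 CpGs (0.0292%), of which 263 had opposite signs in both sets. Klhdc7a held 5 of them, with liver minus adipose at -62.1 points in the control pools and -35.7 points in the second pools. Between the pools of 1 tissue, squared differences were 1.93 times those of counting error in adipose and 1.19 times in liver, and 0.64% and 0.58% of CpGs differed by at least 20 points. CpGs with 20 to 24 reads in the shallower control pool differed by at least 20 points in 14.1% of cases, and those left out with 15 to 19 reads in 15.3%.

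**Figure D1:**
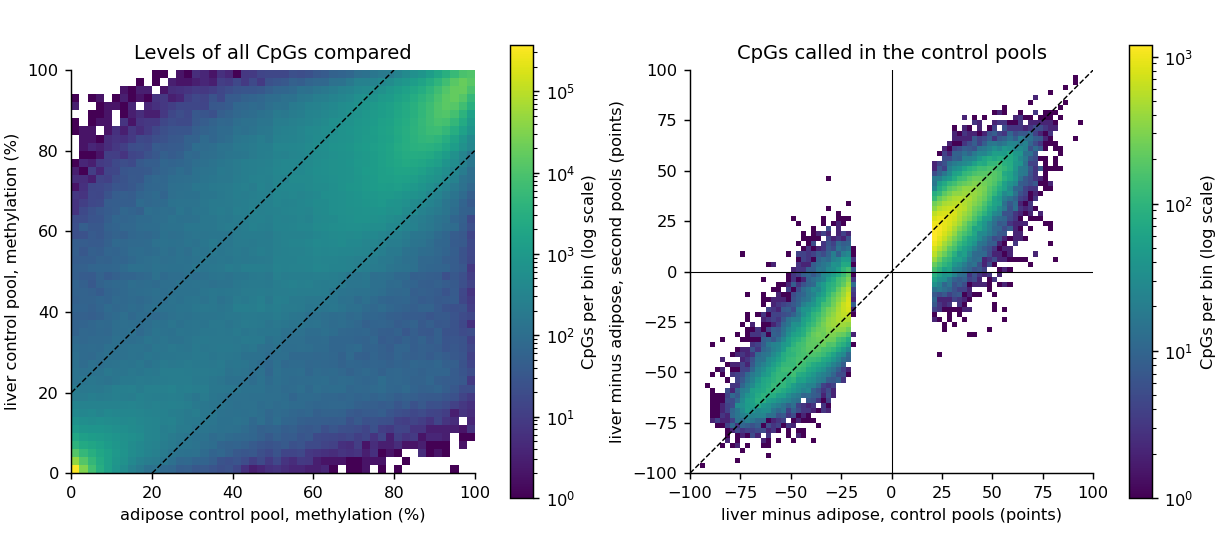
Left, methylation level of each CpG in the adipose control pool (horizontal, %) and the liver control pool (vertical, %), with colour for the number of CpGs per bin on a log scale and dashed lines at a difference of 20 points. Right, liver minus adipose in the control pools (horizontal, percentage points) and in the second pools (vertical) for CpGs called in the control pools, with a dashed line of equality. Most CpGs sit near 0 or near 100% in both tissues, and called CpGs keep their sign in the second pools in 97.4% (lower in liver) and 98.9% (lower in adipose) of cases.

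Short stretches upstream of 5 genes show where the called CpGs lie at promoters. The following sequences are from RefSeq on GRCm38.p6 and run 5′ to 3′ towards the gene's start, with each called CpG in capitals. Apob encodes the structural protein of very-low-density lipoproteins, and Lcat the plasma enzyme that esterifies cholesterol. Adra1b is an adrenergic receptor found on hepatocytes, Cldn4 a tight-junction protein of epithelia such as bile ducts, and Tie1 a receptor of endothelial cells.
Apob, chr12:7977427-7977628, plus strand: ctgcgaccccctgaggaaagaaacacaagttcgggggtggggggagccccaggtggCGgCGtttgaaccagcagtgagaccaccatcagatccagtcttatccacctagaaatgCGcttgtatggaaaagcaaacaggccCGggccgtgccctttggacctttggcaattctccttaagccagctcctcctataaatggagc
Lcat, chr8:105943403-105943589, minus strand: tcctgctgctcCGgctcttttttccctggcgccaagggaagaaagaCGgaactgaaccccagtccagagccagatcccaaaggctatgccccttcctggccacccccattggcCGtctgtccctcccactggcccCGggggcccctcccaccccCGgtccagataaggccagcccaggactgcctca
Adra1b, chr11:43836490-43836739, minus strand: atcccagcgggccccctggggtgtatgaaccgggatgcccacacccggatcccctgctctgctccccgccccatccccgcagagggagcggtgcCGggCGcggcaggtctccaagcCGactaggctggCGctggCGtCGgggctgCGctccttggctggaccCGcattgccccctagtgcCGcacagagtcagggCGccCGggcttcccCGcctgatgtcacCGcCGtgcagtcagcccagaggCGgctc
Cldn4, chr5:134946935-134947184, minus strand: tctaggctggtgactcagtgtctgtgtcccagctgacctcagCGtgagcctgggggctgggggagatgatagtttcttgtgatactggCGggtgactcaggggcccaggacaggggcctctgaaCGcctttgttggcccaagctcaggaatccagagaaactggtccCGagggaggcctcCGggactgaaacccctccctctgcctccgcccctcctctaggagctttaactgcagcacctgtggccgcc
Tie1, chr4:118489850-118490099, minus strand: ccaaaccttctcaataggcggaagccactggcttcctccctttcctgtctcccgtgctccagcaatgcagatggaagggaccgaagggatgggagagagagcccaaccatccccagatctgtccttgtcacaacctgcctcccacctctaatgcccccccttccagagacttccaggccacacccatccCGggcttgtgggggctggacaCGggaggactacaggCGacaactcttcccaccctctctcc

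At Apob all 4 measured CpGs, between 194 and 110 bases before the start used here, chr12:7977677, were called lower in liver. They lay between 69.6% and 90.4% in the adipose control pool and between 19.3% and 24.4% in the liver control pool, on 115 to 144 reads each. The second pools gave 65.8% to 92.0% in adipose and 14.1% to 23.1% in liver, so the tissues did not overlap in either set, and the hypothalamus mean of 81.1% was on the side of adipose. The 5 CpGs upstream of Lcat were likewise lower in liver, with means of 54.4% in adipose, 15.8% in liver and 42.5% in hypothalamus. Upstream of Adra1b the order was the reverse. There 15 of 16 measured CpGs were called lower in adipose, with means of 1.66% in adipose, 44.3% in liver and 0.53% in hypothalamus, and of 0.58% and 33.4% in the second adipose and liver pools. Cldn4 had means of 16.6% in adipose and 62.3% in liver over 5 CpGs, and Tie1 of 35.8% and 68.4% over 3 CpGs. The CpGs of Tie1 lie within 61 bases of the start, and the second pools gave 38.5% and 73.9% there.

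Called CpGs clustered into regions, taken as runs of at least 5 called CpGs of 1 direction with gaps of at most 200 bases. There were 1921 regions lower in liver and 3679 lower in adipose, which held 31.3% and 37.2% of the called CpGs. The regions were found in the control pools, so only levels in other pools are independent of that choice. In the second pools all 1921 regions lower in liver kept their sign, as did 3678 of 3679 lower in adipose, and 87.8% and 88.3% differed there by at least 20 points. Overlap with the body of a gene of any type, coding or not, was found for 75.3% of the regions lower in liver and 71.4% of those lower in adipose. Of all CpGs compared, 59.7% lay in a protein-coding gene body. That is a narrower class counted per CpG, so an excess of regions in gene bodies cannot be read from these shares. A start was known for the gene in or within 5 kb of which 1250 and 2313 of the regions lay. The middle of the region fell between 1000 bases before and 500 after that start in 107 (8.56%) and 196 (8.47%). Such stretches around starts hold 20.7% of all CpGs compared. That share is counted per CpG and includes CpGs far from genes, so a lack of regions at starts cannot be read from these shares.

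Of the 10 regions with the most called CpGs lower in adipose, 7 had levels under 11% in adipose and under 6% in hypothalamus. The largest overlaps the far end of Urad, which encodes a liver enzyme of uric acid breakdown, at chr5:147314567-147316206 and holds 56 called CpGs. This region runs past the end of the gene body, and its middle lies 7054 bases after the start. Its read-weighted level was 2.53% in the adipose control pool, 2.38% in the second adipose pool, 54.3% in the liver control pool, 50.05% in the second liver pool and 3.79% in hypothalamus. In Gata4, a transcription factor of endoderm and heart, 49 CpGs at chr14:63240935-63241822 were at 10.5% in both adipose pools, 58.5% and 49.7% in the liver pools, and 4.61% in hypothalamus. Both regions thus stood apart in liver, while adipose and hypothalamus were alike in being low. A region of 46 called CpGs in Esr1, the oestrogen receptor alpha gene, at chr10:4712157-4712820 was at 6.67% and 6.43% in adipose, 38.4% and 30.6% in liver, and 4.19% in hypothalamus. The second liver pool was lower than the control liver pool in each of these 3 regions, and adipose remained below both. Fut11, a fucosyltransferase gene, had 35 called CpGs just after its start at 0.46% and 0.57% in adipose against 41.7% and 39.6% in liver. Its region also falls within 5 kb of Sec24c, a gene of vesicle coats, for which 50 of 68 CpGs were called. The means of Sec24c over all 68 CpGs were 1.05% in adipose and 34.8% in liver. The other 6 of the 10 leading regions lie in Gm33562, Prob1, Zfp703, Adra1b, 4930404N11Rik and Mn1.

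Of the 10 regions with the most called CpGs lower in liver, hypothalamus lay between the tissues in 6 and below both in 4. Sema6c, a transmembrane semaphorin, had 91 called CpGs in 1 region at chr3:95172461-95173683, with 54.4% and 54.8% in the adipose pools, 15.2% and 12.9% in the liver pools and 46.4% in hypothalamus. Irs2, the insulin receptor substrate through which insulin acts in hepatocytes, had 34 called CpGs at chr8:11004572-11005547, with 72.3% and 75.0% in adipose, 27.7% and 27.1% in liver and 32.7% in hypothalamus. Dusp8, a phosphatase of MAP kinases, had 27 at 76.5% and 72.8% in adipose, 17.3% and 17.2% in liver and 45.0% in hypothalamus. In Casz1, a zinc-finger transcription factor, hypothalamus was below both tissues, and 59 called CpGs were at 38.4% and 35.7% in adipose, 9.22% and 9.64% in liver and 2.60% in hypothalamus. The other leading regions lie in Fam171a2, Mpst, Tbkbp1, Tbxa2r, Sipa1 and Cuedc1.

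**Figure D2:**
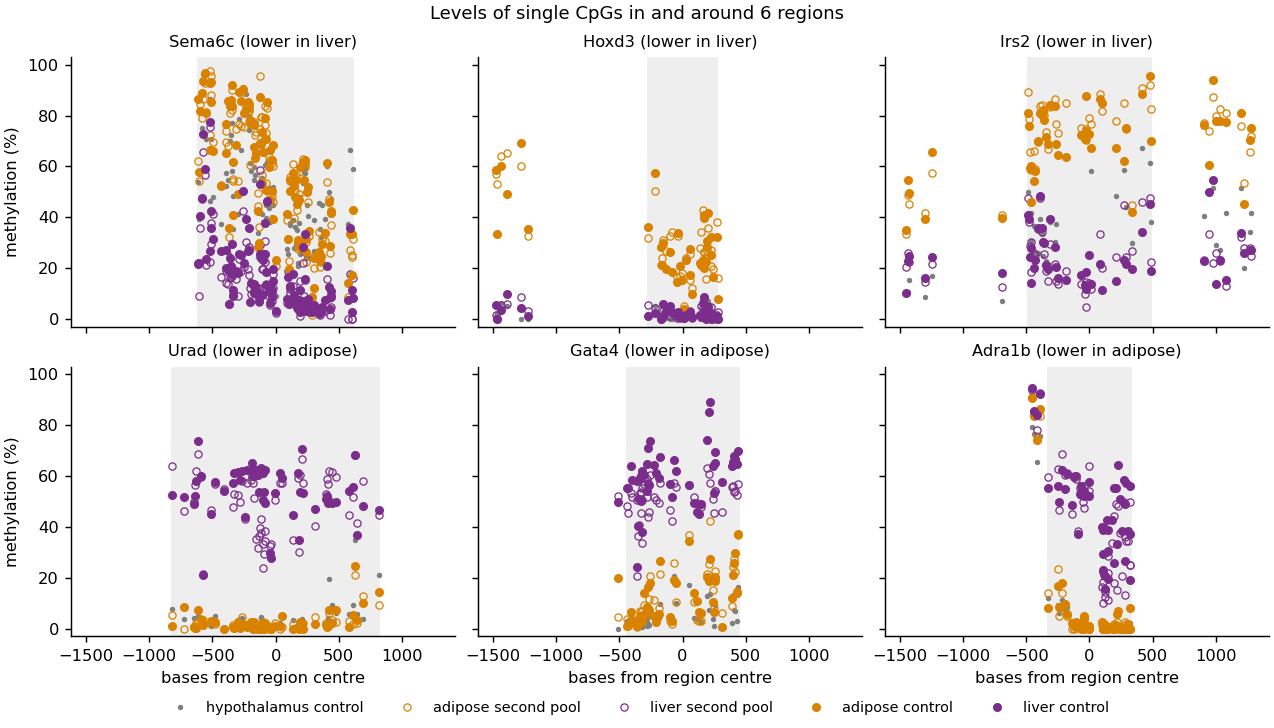
Methylation level (vertical, %) of each CpG by its distance in bases from the centre of a region (horizontal), for 3 genes with regions lower in liver (top) and 3 lower in adipose (bottom), where the gene's region with the most called CpGs is shaded. Filled points are control pools, open points the second pools, and grey dots the hypothalamus control pool. Within the shaded regions of Urad, Gata4 and Adra1b most adipose and hypothalamus points lie below the liver points, the flanking CpGs of Adra1b are high in every pool, and in the shaded region of Hoxd3 most adipose points lie above those of liver and hypothalamus.

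Hypothalamus shows which tissue stands apart. Of the 40082 called CpGs lower in liver with at least 20 hypothalamus reads, 51.9% had a hypothalamus level within 10 points of adipose and 10.96% within 10 points of liver. Of the 66094 lower in adipose, 24.8% were within 10 points of adipose and 39.1% within 10 points of liver. Hypothalamus was above both tissues at 23.6% of the CpGs lower in liver and at 7.54% of those lower in adipose. In both directions the tissue with the lower level thus stood apart more often than the other, whereas at the leading regions in Urad, Gata4, Esr1 and Fut11 liver stood above both other tissues.

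Genes of secreted plasma proteins had the highest share of CpGs lower in liver of the 23 gene lists described. Counts over a set of genes add up its genes, so a CpG within 5 kb of several genes is counted once for each. Over the body and 5 kb either side, 207 of their 635 CpGs (32.6%) were lower in liver and 27 (4.25%) lower in adipose. Over all protein-coding genes, counted alike, the shares were 2.99% and 4.55% of CpGs. Of 30 genes, 26 had a CpG called lower in liver, against 41.0% of all protein-coding genes, and the median gene mean differed by -14.3 points against 0.27 points over all genes. Serpinc1, which encodes antithrombin, had means of 87.4% and 83.3% in the adipose pools, 26.3% and 24.6% in the liver pools and 89.5% in hypothalamus. The fibrinogen gamma gene Fgg had 17 of 20 CpGs called, with 87.8% and 88.0% in adipose, 32.1% and 35.0% in liver and 90.3% in hypothalamus. Ahsg, the gene of the carrier protein fetuin-A, had all 13 called, with 86.8% and 83.3% in adipose and 30.9% and 33.9% in liver. At all 3 genes the liver pools lay apart from the other pools by over 40 points. A single CpG of Fgb, the fibrinogen beta gene, 182 bases after the start at chr3:83049681, was at 97.0% of 372 reads in adipose and 25.6% of 305 in liver, a difference of -71.5 points (95% Newcombe interval -76.2 to -65.8, counting error only). Trf, the transferrin gene, had the most called CpGs of the list, 28 of 62, with means of 70.2% in adipose and 48.5% in liver. Not every member followed: Hpx, the haem-binding hemopexin, had means of 83.1% in adipose and 94.9% in liver over 5 CpGs, with 2 called lower in adipose.

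Metabolic genes of the hepatocyte also had more CpGs lower in liver than in adipose. Over all protein-coding genes the shares were 2.99% lower in liver and 4.55% lower in adipose. In the list of bile acid and xenobiotic genes 14.7% of CpGs were lower in liver and 0.79% lower in adipose. Calls lower in liver were present in 8 of 15 genes (53.3%), against 41.0% of all protein-coding genes. Gsta3, a glutathione transferase, had means of 59.5% and 70.1% in the adipose pools and 21.2% and 24.1% in the liver pools, and the bile acid importer Slc10a1 had 86.4% and 85.8% against 62.6% and 64.3%. Cyp7a1, the rate-limiting enzyme of bile acid synthesis, had 76.7% in adipose and 56.7% in liver over only 5 CpGs. In the list of amino acid and glucose enzymes 11.8% of CpGs were lower in liver and 2.80% lower in adipose. Pck1, the control point of glucose production, had means of 56.4% in adipose and 30.2% in liver, a difference of -26.2 points, or -42.7 points over the gene body alone. In Tat, tyrosine aminotransferase, the order was the reverse, at 58.5% and 66.2% in the adipose pools and 78.2% and 79.6% in the liver pools. Among cholesterol and lipoprotein genes 9.43% of CpGs were lower in liver and 5.43% lower in adipose. Lcat had means of 27.5% and 10.7%, a difference of -16.8 points, or -65.8 points over the gene body alone, and Soat2, which esterifies cholesterol inside hepatocytes and enterocytes, had 58.4% in adipose and 79.2% in liver. For fatty acid oxidation the shares were 5.61% and 3.12%, with 31 CpGs lower in liver in Ppara, the nuclear receptor that governs it, at 23.2% and 23.0% in adipose and 14.0% and 14.96% in liver.

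Transcription factors of the hepatocyte were split when counted by CpG. Of their CpGs 8.24% were lower in liver and 9.05% lower in adipose, against 2.99% and 4.55% over all protein-coding genes. By gene, 17 of 18 had a call lower in liver (94.4%, against 41.0% of all). A call lower in adipose was present in 13 (72.2%, against 47.6% of all). Gene means were at least 5 points lower in liver in 7 and at least 5 points lower in adipose in 2. Hnf4a, a nuclear receptor that maintains hepatocyte identity, had means of 77.7% and 78.0% in the adipose pools, 58.8% and 59.9% in the liver pools and 82.9% in hypothalamus. A CpG 98 bases after a start of Hnf4a, at chr2:163506955, was at 93.3% of 224 reads in adipose and 20.6% of 345 in liver (difference -72.7 points, interval -77.4 to -66.6). Nr1i2, Creb3l3 and Foxa3 were also lower in liver by gene mean, by -22.3, -17.2 and -11.6 points. Gata4, with 60 of 206 CpGs called, and Foxa1, with 30 of 127, were instead lower in adipose. Foxa1, a pioneer factor, had means of 3.4% in both adipose pools, 13.7% and 12.2% in the liver pools and 3.9% in hypothalamus. Over the gene body alone its difference was 0.87 points, against 10.2 points with 5 kb either side. That of Nr1i2 was -14.3 points when CpGs were weighted by reads.

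Adipocyte genes had calls in both directions. Of 1149 CpGs in 24 genes, 8.01% were lower in adipose and 6.01% lower in liver, and 19 genes had a CpG lower in adipose, against 47.6% of all protein-coding genes. Fabp4, the fatty acid carrier of adipocytes, had the largest gene mean difference of the list, with 41.7% and 43.6% in adipose, 85.7% and 83.2% in liver and 89.95% in hypothalamus, and all 4 of its CpGs were called. Lep, which encodes leptin, had 56.9% and 61.3% against 71.0% in both liver pools, and Adrb3, the receptor through which noradrenaline drives lipolysis, had 14.2% and 15.5% against 25.2% and 26.2%. Over the gene body alone the difference of Lep was 27.1 points, against 14.1 with 5 kb either side, and that of Adrb3 2.96 points, against 11.1. The lipid droplet coat gene Plin1 had 61.6% and 64.1% in the adipose pools and 69.8% and 67.6% in the liver pools, a difference of 8.18 points in the control pools and 3.43 points in the second pools. Cfd, which encodes adipsin, Cidec, a lipid droplet protein, and Dgat2, which makes triglyceride, were lower in liver, with Dgat2 at 24.8% and 24.7% in the adipose pools and 15.1% and 15.7% in the liver pools. The mean difference of Cfd was -10.0 points with 5 kb either side and 0.16 points over the gene body alone, and that of Dgat2 -9.67 and -16.7 points. Regulators of adipose precursors had 9.51% lower in liver and 9.74% lower in adipose. Beside both lists, the shares over all protein-coding genes were 2.99% lower in liver and 4.55% lower in adipose. Prdm16, a regulator of thermogenic fat, had 165 of the 309 CpGs of precursor regulators lower in adipose. The pericyte and precursor receptor Pdgfrb had means of 49.1% in adipose and 63.2% in liver. Zfp423, Ebf3 and Klf15 had more CpGs lower in liver, 78, 66 and 27 respectively.

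**Figure D3:**
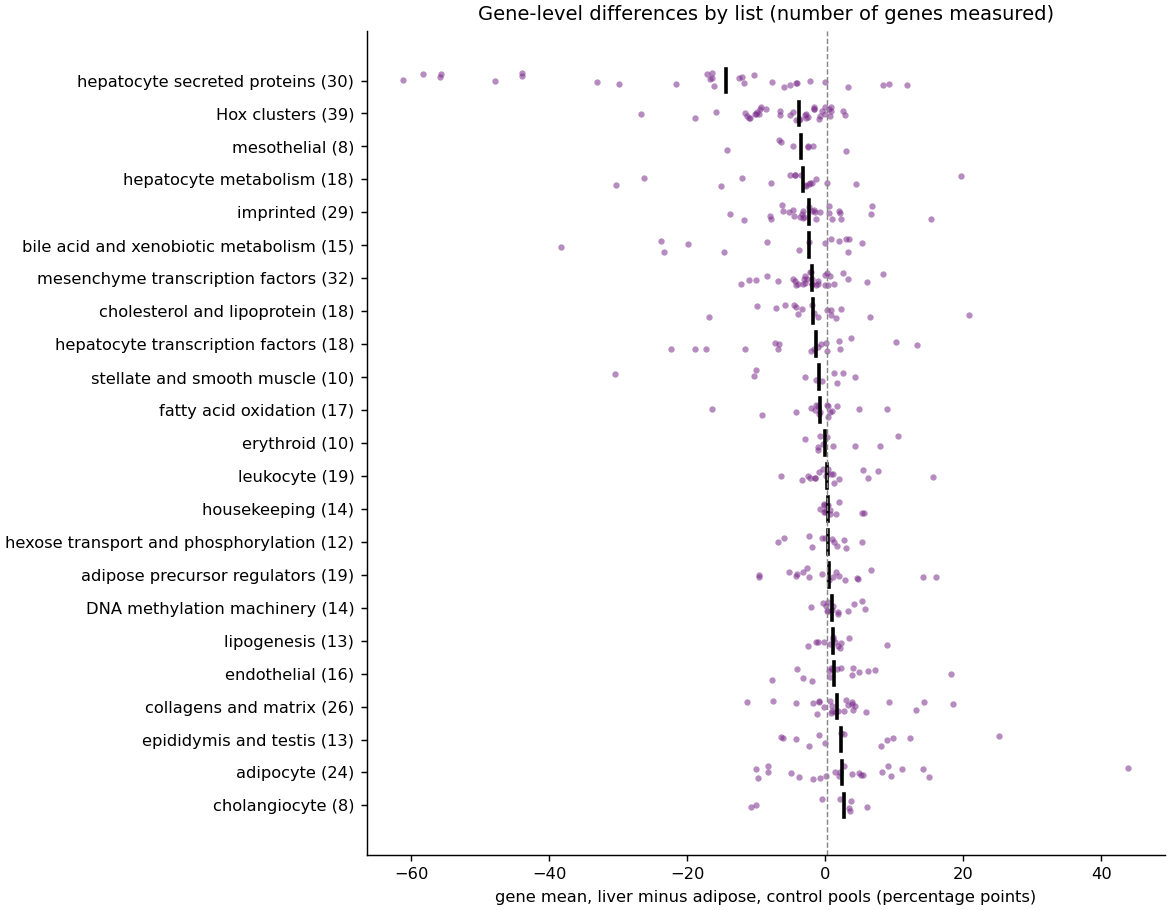
Gene mean of liver minus adipose in the control pools (horizontal, percentage points) for every measured gene of each list (vertical, with the number of genes), where each point is a gene, the black bar the list's median and the dashed line the median of all protein-coding genes at 0.27 points. Secreted plasma proteins have the lowest median, -14.3 points, and Fabp4 is the point farthest to the right.

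Hox genes, whose transcription factors mark position along the body axis, were more methylated in adipose. Of 4854 CpGs in 39 genes, 609 (12.6%) were lower in liver and 9 (0.19%) lower in adipose. These are not all distinct sites, because a CpG within 5 kb of several Hox genes is counted once for each. Over all protein-coding genes, counted alike, the shares were 2.99% and 4.55%. A call lower in liver was present in 29 of the 39 genes (74.4%), against 41.0% of all protein-coding genes. A gene mean at least 5 points lower in liver was found in 17, against 1717 of the 18459 measured protein-coding genes. A gene mean at least 5 points higher in liver was found in 0, against 1956 of those 18459. Hoxd3 had 130 of 297 CpGs called, with means of 23.2% and 25.9% in the adipose pools, 4.4% and 4.7% in the liver pools and 3.4% in hypothalamus. Hoxd4, whose CpGs overlap those counted for Hoxd3, had 34.3% and 39.0% in adipose, 7.7% and 8.1% in liver and 6.1% in hypothalamus. In both genes the adipose pools were above the liver pools and hypothalamus. Hoxa5 had 32.3% in adipose and 16.5% in liver, Hoxa3 17.7% and 8.1%, and Hoxb3 19.9% and 9.1%. Hoxb7 was low in both, with 2.3% in adipose and 5.1% in liver. A CpG at chr2:74747985 in Hoxd3 was at 71.6% of 236 reads in adipose, 6.6% of 301 in liver and 3.2% in hypothalamus, a difference of -65.0 points (interval -70.8 to -58.0). The list median was -3.73 points with 5 kb either side and -0.79 points over gene bodies alone.

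Other transcription factors of mesoderm followed the same direction at smaller size. In the list of mesenchyme transcription factors 5.41% of CpGs were lower in liver and 2.36% lower in adipose, against 2.99% and 4.55% over all protein-coding genes. A call lower in liver was present in 27 of 32 genes (84.4%), against 41.0% of all. Tbx18, a factor of mesothelium and mural cells, had means of 16.0% and 18.0% in the adipose pools, 4.9% and 5.0% in the liver pools and 4.7% in hypothalamus, a difference of -11.1 points, or -5.67 points over the gene body alone. Osr1, Osr2 and Hlx had 16.6%, 14.5% and 13.6% in adipose and 4.3%, 4.5% and 5.1% in liver. Gata6 and Twist2 went the other way, with means 6.0 and 8.4 points higher in liver, and Gata6 11.1 points higher over the gene body alone. Hypothalamus, at 4.5% to 5.5% for Osr1, Osr2 and Hlx, lay with liver.

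CpGs around microRNA hairpins were called in both directions. Member CpGs lay within 1000 bases of 384 of 919 RefSeq hairpins, of which 53 had a CpG lower in liver and 81 a CpG lower in adipose. Over all CpGs compared, 3.18% were lower in liver and 4.97% lower in adipose. A window can hold many CpGs, so these counts do not set hairpins apart from other places. The mature 5′ arms of 5 hairpins with many called CpGs are given below, chosen after their values were seen, with the seed (bases 2 to 8) in capitals. None shares its seed with another of the 5.
mmu-miR-10b-5p: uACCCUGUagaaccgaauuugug
mmu-miR-196a-5p: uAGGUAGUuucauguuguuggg
mmu-miR-125a-5p: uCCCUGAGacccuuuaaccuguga
mmu-let-7e-5p: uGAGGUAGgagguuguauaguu
mmu-miR-26a-5p: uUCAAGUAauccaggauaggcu

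Mir10b, which lies in the HoxD cluster at chr2:74726070-74726137, had all 8 of its CpGs called lower in liver, with means of 39.4% and 42.7% in the adipose pools, 7.8% and 8.1% in the liver pools and 3.7% in hypothalamus. Mir196a-1, in the HoxB cluster at chr11:96265164-96265265, had 8 of 18 called, with 35.4% and 34.8% in adipose, 11% and 8.1% in liver and 3.8% in hypothalamus. Mir125a and Mirlet7e are neighbours whose windows hold the same 23 CpGs, of which 21 were lower in adipose, with 37.5% and 38.7% in adipose, 75.1% and 73.6% in liver and 55.9% in hypothalamus. Mir26a-1 had 14 of 15 called lower in adipose, with 40.6% and 34.7% against 79.6% and 80.8%, and 71.5% in hypothalamus.

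CpGs of matrix and vessel genes were more often called lower in adipose than lower in liver. Over all protein-coding genes 4.55% of CpGs were lower in adipose and 2.99% lower in liver. Of collagen and matrix CpGs 9.04% were lower in adipose and 2.39% lower in liver. By gene, 21 of 26 had a call lower in adipose (80.8%, against 47.6% of all protein-coding genes). A call lower in liver was present in 16 of the 26 (61.5%, against 41.0% of all). Col4a2 and Col4a1, the paired chains of basement membrane collagen, had 45 and 28 CpGs lower in adipose and gene means 9.2 and 6.0 points lower there. Sparc, a matrix protein that adipocytes and fibroblasts secrete, had means of 60.4% and 57.7% in adipose and 78.9% and 79.2% in liver, and Eln, the elastin gene, 66.7% and 79.8%. Fn1, the fibronectin gene that hepatocytes also express, had 13 CpGs lower in liver and 0 lower in adipose. Of endothelial CpGs 8.16% were lower in adipose and 2.28% lower in liver. Counted by gene the directions were equal, with a call lower in adipose in 9 of 16 endothelial genes and a call lower in liver in 9. Each is 56.25%, against 47.6% and 41.0% of all protein-coding genes. Pecam1, a junction protein of all endothelium, had 25 of 60 CpGs called, with means of 52.0% and 50.5% in adipose, 70.3% and 69.3% in liver and 71.1% in hypothalamus. Flt1, a receptor of vascular endothelial growth factors, had 29 of the 100 endothelial CpGs called lower in adipose. Stab2, a scavenger receptor of liver sinusoidal endothelium, had 9 called lower in liver and 0 lower in adipose, with 82.8% and 75.0%.

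Markers of other cells that the dissections could hold were counted in the same way. Over all protein-coding genes 2.99% of CpGs were lower in liver and 4.55% lower in adipose. Leukocyte genes had 2.12% of CpGs lower in liver and 3.76% lower in adipose, and erythroid genes, active in the liver of the fetus, 1.56% and 2.73%. Mesothelial genes had 12.8% lower in liver and 1.60% lower in adipose, of which the keratin gene Krt18, also used by hepatocytes, gave 19 of 32 CpGs. Genes of testis and epididymis, organs that adjoin this fat depot, had 0.53% of CpGs lower in liver and 3.21% lower in adipose, both under the shares of all protein-coding genes. Of 13 genes with 187 CpGs, 4 (30.8%) had a CpG lower in adipose, against 47.6% of all. By gene mean, 5 of the 13 were at least 5 points lower in adipose and 2 at least 5 points lower in liver, against 1956 and 1717 of 18459 measured protein-coding genes. The list median was 2.34 points, against 0.27 over all. Lcn8 of the epididymis had means of 67.2% and 64.7% in the adipose pools against 92.4% and 93.0% in the liver pools, over 3 CpGs. The part of these cells in the differences was not tested. Stellate and smooth muscle genes had 4.83% lower in liver and 6.73% lower in adipose. By gene, 8 of 10 had a call lower in liver and 5 a call lower in adipose, and the list median was -0.88 points. Acta2, smooth muscle actin, was lower in liver over 8 CpGs, at 86.5% and 85.7% in adipose and 56.0% and 61.6% in liver. Cholangiocyte genes had 3.61% and 6.57%.

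Housekeeping genes had the fewest calls per CpG of all lists, 0.32% lower in liver and 2.34% lower in adipose, and Gapdh had means of 2.6% in both control pools. Genes of the DNA methylation machinery had 1.63% and 4.31%, with 20 CpGs of the de novo methyltransferase gene Dnmt3a lower in adipose. Imprinted genes, which carry a methyl mark on the copy from 1 parent, had 4.91% lower in liver and 4.08% lower in adipose. Mest had means of 65.5% and 58.5% in the adipose pools and 51.7% and 49.5% in the liver pools, and Nap1l5 49.6% and 50.4% against 65.0% and 56.4%. Weighted by reads the difference of Mest was -8.39 points, against -13.8 unweighted. The second liver pool of Nap1l5 lay nearer to adipose than the control liver pool did. Lipogenesis genes had 3.55% and 4.59%, and genes of hexose transport and phosphorylation 3.62% and 5.90%, both close to the shares of all protein-coding genes.

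By gene, the highest counts were as follows. Hoxd3 had 130 of 297 CpGs lower in liver. The other 9 genes of the 10 with the most calls in that direction are overlapping gene models that all reach into the protocadherin gamma cluster. Their CpGs are shared between them, with 121 to 153 called each of 628 to 1289 measured. The models Gm37013, Gm38666 and Gm38667 begin before the gamma genes, so their counts include CpGs outside that cluster. In the other direction Gse1 had 168 of 1223 CpGs lower in adipose, Prdm16 165 of 775, Camta1 157 of 1154, Nav2 113 of 587 and Tshz2 111 of 467. Sh3pxd2a with 101 of 415, Mn1 with 94 of 229, Shank2 with 90 of 367 and Wwox with 89 of 844 also had high counts. These counts rank genes partly by how many CpGs were measured in them, and 4.97% of all CpGs were lower in adipose. Gse1 also had 72 CpGs lower in liver, and Wwox 58. Ranked by the gene mean over at least 5 CpGs, a ranking made after the values were seen, Iyd, which recovers iodide from thyroid hormone precursors, led with 92.2% and 89.0% in adipose against 22.0% and 30.9% in liver. Inhbe, an activin subunit secreted by hepatocytes, had 71.8% and 71.4% against 17.9% and 20.8%. In the other direction Aurkaip1, a mitochondrial ribosome protein, had 11.8% and 6.9% against 57.6% and 54.8%, and Cavin3, a caveola coat protein, had 21.6% and 23.8% against 66.6% and 65.8%. Caveolae are abundant in adipocytes and endothelium.

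Calls were rare at gene starts. Within 500 bases before a start 0.45% of CpGs were lower in liver and 0.80% lower in adipose, and between 2000 and 5000 bases after a start 5.77% and 7.65%. Mean levels in the former were 3.4% and 3.8%. CpGs with 1 to 2 other member CpGs within 100 bases were called in 5.46% and 8.41% of cases, and those with at least 21 in 0.33% and 0.28%. Of CpGs with a mean level between 30% and 50%, 20.9% were lower in liver and 26.7% lower in adipose. Over chromosomes the shares ran from 2.87% to 3.67% and from 4.02% to 5.91%. Starts were known for 16457 of 20665 protein-coding genes.

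**Figure D4:**
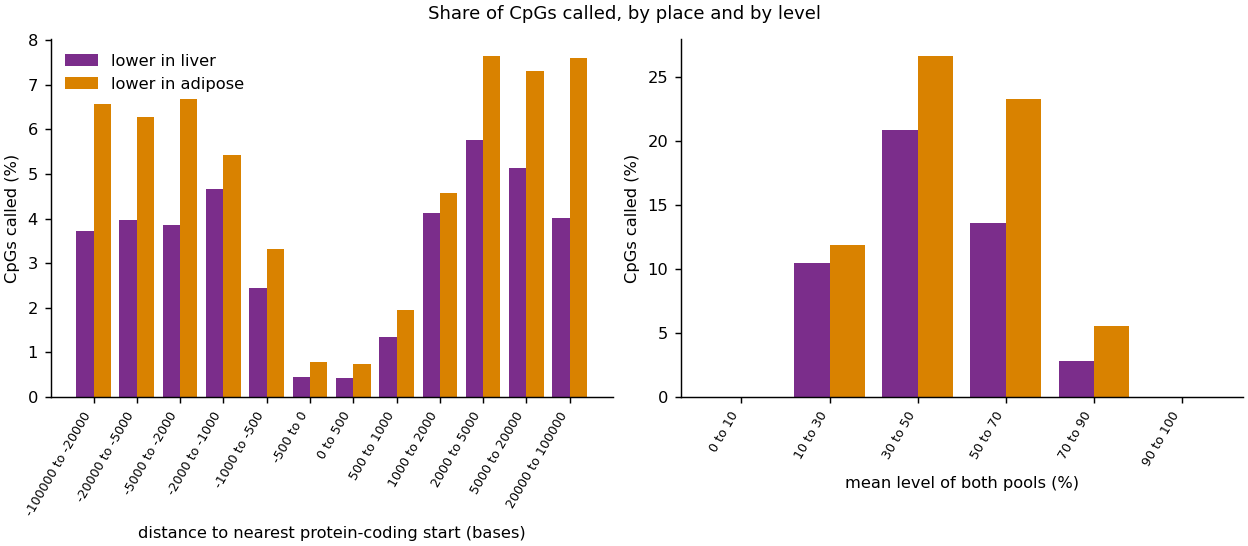
Percent of CpGs called lower in liver and lower in adipose (vertical) by signed distance in bases from the nearest known protein-coding start (left) and by the mean level of both control pools in % (right). Calls are fewest within 500 bases of a start, and a CpG with a mean level under 10% or over 90% cannot reach a difference above 20 points.

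Among 8878 RefSeq promoter windows of 300 bases with CpGs measured, 92.4% were under 20% in both tissues. At least 2 called CpGs of 1 direction upstream were found in 75 windows lower in liver and 143 lower in adipose, and their mean GC content was 54.4% and 56.9%, against 63.7% over all. Each window was searched on both strands for short motifs. The letters GTTAAT, part of the HNF1 motif, were present in 16.0% of the windows lower in liver, 6.99% of those lower in adipose and 3.37% of all. The C/EBP motif TTGCNNAA was found in 17.3%, 7.69% and 6.60%, the GATA motif AGATAA in 18.7%, 9.09% and 4.53%, and the FOXA motif TGTTTAC in 6.67%, 1.40% and 1.94%. The HNF4 letters AAAGTCC were found in 6.67%, 6.99% and 3.63%, the AP-1 motif TGANTCA in 8.00%, 9.79% and 4.05%, and the TEAD motif GGAATG in 14.7%, 19.6% and 10.6%. Of the printed stretches, that of Apob holds the C/EBP letters, that of Lcat the GATA letters and that of Cldn4 the AP-1 letters. The windows lower in liver also had the lowest GC content, and the part of base content in these shares was not tested.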

How the data were processed

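RRBS libraries were made from 100 ng of DNA per sample, per the labels' protocols, and reads were aligned with BSMAP to GRCm38 (mm10), per the submitters' processing notes. The version of BSMAP and any removal of PCR copies are not given in the sources used here. The deposited read counts per CpG and the deposited methylation fraction, per the file headers, join the 3 samples of a group, so the tests per sample foreseen in the design could not be run. The authors' deposited p-value compares control with BPA and was not used. Methylated reads were recovered as the rounded product of count and fraction. Each CpG was tested by a two-sided Fisher's exact test on pooled reads (Python 3.11.15, scipy 1.17.1) with Benjamini-Hochberg adjustment, and limma 3.58.1 served as an alternative. The scripts were tested on simulated data.

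Levels of regions are read-weighted, and those of genes and promoters are means over CpGs with 95% Newcombe intervals for single CpGs, which cover counting error only. Genes and starts came from RefSeq tables on GRCm38.p6, and all 146631 CpGs that fall in promoter windows lay on a CG there. Chromosome 18 has no starts in the tables used. Stretches of upstream sequence inside an annotated gene body, the gene's own included, were left out where no called CpG was lost. The annotated body of Apob begins at chr12:7977629, before the start at chr12:7977677 from which its distances are counted. Of 432 list entries 430 matched. The motif search in regions was not run, because no genome was used, and that in promoters, the microRNA windows and the ranking by gene mean were added later.

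The CpGs, lists and motifs were chosen with earlier results of these data known. Named were the 10 regions and the 10 genes per direction with the most called CpGs, and up to 4 genes per list and direction. Fgb, Ahsg, Serpinc1, Apob, Cyp7a1, Nr1i2, Fabp4, Plin1, Klf15, Hoxa5, Osr1, Sparc, Eln, Nap1l5, Gapdh, Tie1, Lcn8, Sec24c, Iyd, Inhbe, Aurkaip1, Cavin3 and Klhdc7a fall outside that rule and were chosen after their values were seen. A few genes that the rule names are not reported here.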

Additional observations from a re-analysis of the deposited data

Results flagged for a closer look

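At 416 CpGs the difference between adipose and liver differed between the control pools and the second pools by the Wald test, which takes pooled reads as independent. Klhdc7a held 5 of these CpGs, with 82.0% and 74.6% in the adipose pools and 19.9% and 38.9% in the liver pools. Dpf3, Lrpprc and Tcf7l1 held 3 each. In Lrpprc liver minus adipose was 11.1 points in the control pools and -28.9 points in the second pools, and in Tcf7l1 it was -8.6 and 34.6 points. With the variance scaled by the excess between pools, 15 CpGs were called.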

How the results depend on the processing

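Calls lower in liver and lower in adipose numbered 126951 and 136026 at a minimum difference of 5 points, 95446 and 120166 at 10, 13927 and 16373 at 40, and 25668 and 41185 with Bonferroni adjustment. Called the same way in both sets of pools, an alternative chosen after seeing the data, were 30386 lower in liver and 52333 lower in adipose. With the pool number as a replicate block, limma over 2 pools a tissue called 0 in each direction, and 324321 CpGs had an unadjusted p under 0.05. The mean difference of 0.24 points was 0.2203 with at least 10 reads, 0.2532 with at least 50, 0.3411 in the second pools and 0.2807 with both pools of a tissue joined. CpGs whose tissue difference differed between the sets of pools fell from 416 to 15 with the variance scaled by the excess between pools. Regions lower in liver and lower in adipose numbered 4867 and 9009 with at least 3 called CpGs, 338 and 539 with at least 10, and 4780 and 7441 at 5 points. The cause of these moves was not tested beyond the stricter or looser rule itself. Weighting CpGs by reads moved the median over all protein-coding genes from 0.27 to -0.71 points, and turned the list medians of DNA methylation machinery (-1.364), adipocyte (-0.1784), adipose precursor (-2.35), cholangiocyte (-0.1876), hexose (-1.757), housekeeping (-0.07662) and leukocyte genes (-0.5416), and the mean of Flt1 (-2.475). Gene bodies alone turned epididymis and testis (-0.9694), erythroid (0.1077) and leukocyte genes (-0.69), Cfd (0.1578) and Onecut1 (-2.168). The second pools turned fatty acid oxidation (0.1619), hexose (-0.08887) and leukocyte genes (-0.07574). That block pairs pools, and pairing by animal was not possible because values per sample were not used here. For the same reason no sample could be left out.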
